A study of Homo sapiens with 6 samples.

Results

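The genes described here encode the SR proteins (SRSF1 to SRSF12, 12 genes) and the heterogeneous nuclear ribonucleoproteins (20 genes whose symbols begin with HNRNP). Their peaks were all entries of the deposited poly(A) 3′-seq peak list whose summit lay in the Gencode gene body, or up to 4000 bp past its 3′ end. By this rule 284 of the 200023 peaks belonged to the 32 genes, 94 to SRSF and 190 to HNRNP genes, and no peak belonged to more than one of them. The rule itself uses no measured value.

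Poly(A) 3′-seq was run on IMR-32 cells, a human neuroblastoma line, with a kit whose reads begin at the cleavage site. The 6 libraries, 2 per group, came from cells in the solvent DMSO, cells in 400 nM THZ531 for 2 h, and cells in 400 nM THZ531 for 6 h. THZ531 covalently inhibits the kinases CDK12 and CDK13. The list holds peaks called once on merged reads and has neither strand nor values of single libraries, so no effect of THZ531 and no replicate error can be given for any gene below.

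SR proteins carry RNA recognition motifs and a domain rich in arginine and serine, and bind exonic enhancers to promote the use of nearby splice sites. The hnRNPs are abundant nuclear RNA-binding proteins that coat nascent transcripts, often favour exon skipping, and also act in export, stability and 3′ end formation. Many members of both families limit their own amounts through alternative exons or alternative 3′ ends whose transcripts are destroyed by nonsense-mediated decay (NMD) or stay in the nucleus.

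Of the 284 peaks, 256 reached the −log10 q of 5 that the study used as its cutoff, 86 in SRSF and 170 in HNRNP genes. Below it lay 8 SRSF and 20 HNRNP peaks. The closest values on either side were 5.03 and 4.95. Each gene kept at least 3 peaks. All values below concern these 256 peaks unless stated, and a peak's height is its number of reads at the summit. This height counts distinct read positions, which cannot exceed 200, so it levels off in strongly expressed genes and is not an expression level.

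Peaks were placed in the gene by their summit. A summit from 200 bp before to 600 bp after the end of any annotated transcript of the gene was a transcript-end peak, and the remaining summits were exonic, intronic in every transcript, or past the gene. Because a read starts at the cleavage site, the peak border nearest the gene's 3′ end (the 3′ edge) was taken as the site. The genomic sequence there is shown first, since a poly(A) signal and a run of genomic A are the features by which a cleavage site and a site of internal priming are usually told apart.

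The following stretches begin with the AATAAA poly(A) signal, in capitals, and run for 30 bases (GRCh38, gene strand). They are the transcript-end peaks with the most reads, 1 per gene and 5 per family, among those with AATAAA starting under 30 bases before the 3′ edge. This choice and the next 2 were made after the peaks had been seen.

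SRSF5 chr14:69771073-69771102 (+): AATAAAattaattgaaggcagcaaaaggca
SRSF10 chr1:23969072-23969101 (-): AATAAAaacaaaatgaaggaaataatgatt
SRSF3 chr6:36602899-36602928 (+): AATAAAatattagcataattgtgtatagtc
SRSF6 chr20:43464221-43464250 (+): AATAAAacttagagttcttgcaatagagca
SRSF4 chr1:29147740-29147769 (-): AATAAAgactatttttgcttgacaaaattt
HNRNPA2B1 chr7:26189925-26189954 (-): AATAAAatgctgttcattatgcactgtata
HNRNPA1 chr12:54284862-54284891 (+): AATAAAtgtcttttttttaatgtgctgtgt
HNRNPH1 chr5:179614174-179614203 (-): AATAAAtcctccttttaaaaactgcactct
HNRNPL chr19:38836371-38836400 (-): AATAAAcacagcacttgctgggattccagg
HNRNPD chr4:82353821-82353850 (-): AATAAAtccttttgtataaaaatgtattgg

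In these 10 peaks AATAAA began between 10 bases (HNRNPA2B1) and 27 bases (SRSF3) before the 3′ edge. All but the SRSF5 peak lay in the 3′ UTR of the canonical transcript, and the SRSF5 peak lay in its coding sequence, at the end of a retained-intron transcript. Intronic peaks with AATAAA as close to the edge were found in 3 genes, shown in the same way.

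HNRNPLL chr2:38567082-38567111 (-): AATAAAaaaacaaaatgattcttctgtaca
SRSF11 chr1:70217712-70217741 (+): AATAAAtctgaagtgatttaaaactgtcat
SRSF12 chr6:89113634-89113663 (-): AATAAAtaaataaataggctttaacattta

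Their heights were 14, 17 and 15 reads. A further 4 intronic peaks were followed, within 50 bases of the 3′ edge, by 25 bases with at least 22 A. The study treated such a stretch as a sign of internal priming where no poly(A) signal was found. Those 25 bases are in capitals.

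HNRNPM chr19:8477665-8477694 (+): AAAAAAAAAAAAAAAAAAAAAAAAAaaaag
SRSF11 chr1:70243341-70243370 (+): AAAAAAAAAAAAAAAAAAAAAAAAAaaaaa
SRSF12 chr6:89103983-89104012 (-): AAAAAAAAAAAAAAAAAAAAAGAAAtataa
SRSF4 chr1:29173448-29173477 (-): AAAAAAAAAAAGAAAAAAAAAAAACaactt

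These 4 peaks had 17, 17, 13 and 21 reads, and none was the tallest intronic peak of HNRNPM, SRSF11 or SRSF12. In SRSF4, a regulator with a pair of RNA recognition motifs, the peak of 21 reads was the tallest intronic peak, although its 3′ edge lay in an exon of another transcript. Over all peaks of the families an A stretch of this kind followed 4 of 86 SRSF peaks and 3 of 170 HNRNP peaks, against 4.05% of the peaks of other detected genes. With no hexamer in addition, 6 of the 256 peaks were of this kind, against 3.27%, so the list still holds them.

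A gene was called detected when it had a transcript-end peak. All 12 SRSF and 19 of 20 HNRNP genes were detected, where 64% of the other protein-coding genes were. HNRNPA0 was the exception and is described with its relatives below. The tallest transcript-end peak of a detected gene had a median of 47 reads in SRSF genes (23 to 73) and 50 reads in HNRNP genes (32 to 83), against 25 reads in 12803 other detected genes. At least 50 reads were reached by 5 of 12 SRSF and 11 of 19 HNRNP genes, against 8.91% of the other detected genes. The plot of reads by gene shows the overlap of the families.

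**Figure D1:**
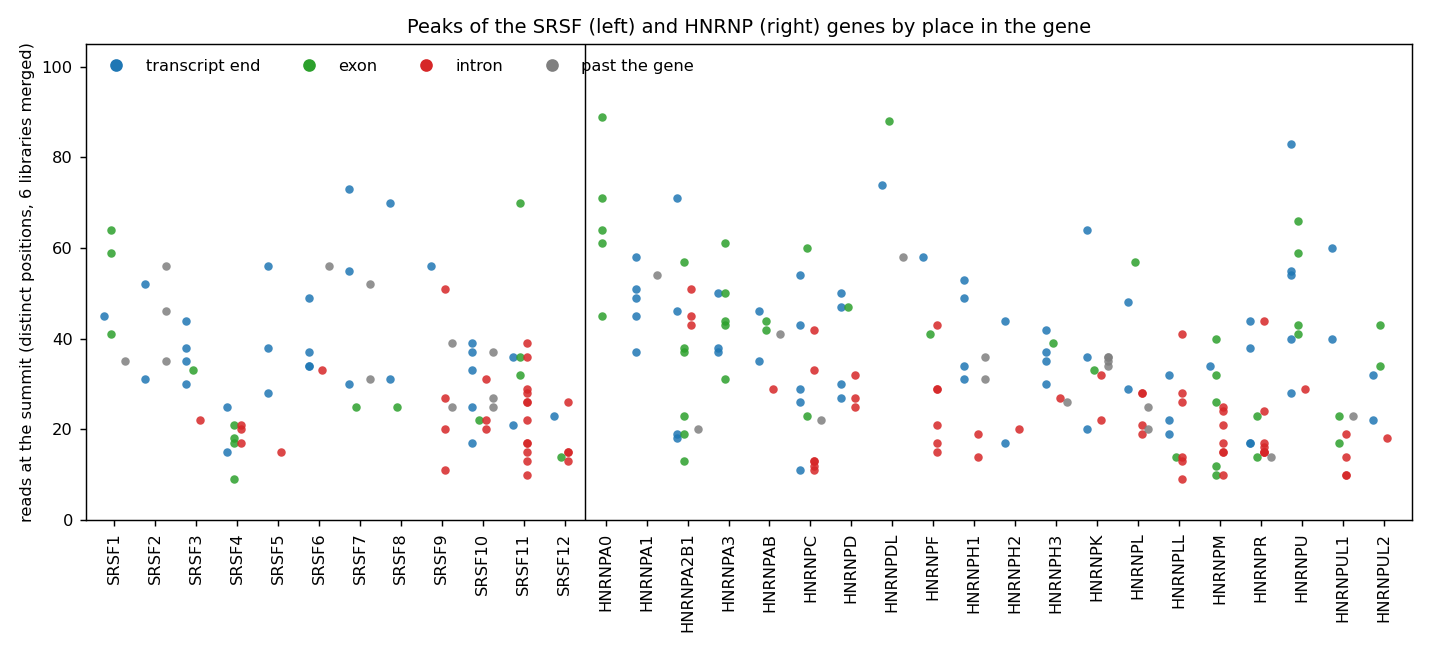
Reads at the summit (y axis, distinct read positions in the merged libraries) of each of the 256 peaks, for the 12 SRSF genes left of the line and the 20 HNRNP genes right of it, coloured by place in the gene. Heights run from 9 to 89 reads, the tallest in HNRNPA0, whose peaks are all exonic.

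The local background of the peaks moved with these heights. Its median per gene was 5.24 reads in SRSF and 6.18 reads in HNRNP genes and 1.23 reads in other detected genes. The fold enrichment over it had a median of 5.20 for SRSF and 5.16 for HNRNP peaks against 6.73 for the others. Its part in which peaks passed the cutoff was not tested.

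Peaks were divided among the places in the gene as follows. Transcript-end peaks made up 34.9% of SRSF peaks (30 of 86, Wilson 95% interval 25.7 to 45.4) and 33.5% of HNRNP peaks (57 of 170, 26.9 to 40.9). Intronic peaks made up 33.7% (29 of 86, 24.6 to 44.2) and 32.4% (55 of 170, 25.8 to 39.7). Exonic peaks were 17.4% of SRSF and 24.7% of HNRNP peaks, and peaks past the gene 14.0% and 9.41%. For each class the intervals of the families overlapped, and they cover counting error only. Among other detected genes 63.4% of peaks were intronic and 21.9% lay at transcript ends.

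**Figure D2:**
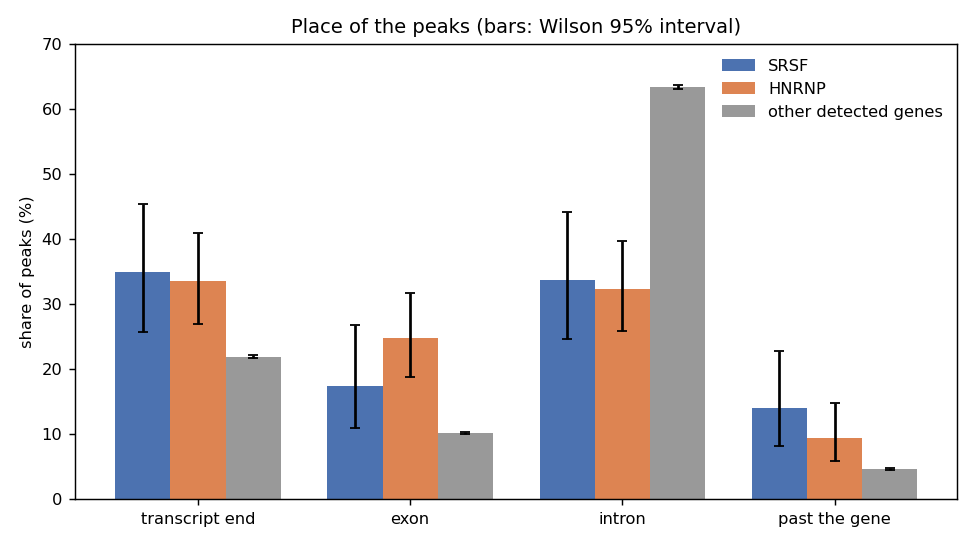
Share of peaks (y axis, %) at transcript ends, in exons, in introns and past the gene for SRSF genes (86 peaks), HNRNP genes (170 peaks) and other detected protein-coding genes (123479 gene and peak pairs), with Wilson 95% intervals. The SRSF and HNRNP bars overlap in each class, with intronic shares of 33.7% and 32.4% where the other genes have 63.4%.

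Gene length had a median of 13.9 kb in SRSF genes (3.22 to 47.4) and 18.3 kb in HNRNP genes (5.91 to 60.4). The median of other detected genes was 35.1 kb, and some members were longer than that. Total intron length had a median of 4.43 kb in SRSF and 9.46 kb in HNRNP genes, against 28.9 kb in other detected genes. Counted per kb of summed intron, SRSF genes held 0.172 and HNRNP genes 0.177 intronic peaks, against 0.0862 in other detected genes. Without the member with the most intronic peaks these values were 0.131 for SRSF and 0.172 for HNRNP genes. The median over single genes was 0.132 in SRSF, 0.180 in HNRNP and 0.0954 in other detected genes. At least 1 intronic peak was found in 8 of 11 SRSF genes with an intron and in 16 of 19 detected HNRNP genes with one, close to the 79.7% of other detected genes. A lower share of intronic peaks than in other genes stood beside a higher number per kb.

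Genes of like intron length were set beside the members. Between the quartiles of the SRSF family (2.61 to 26.6 kb of intron), 4774 other detected genes had a median of 1 intronic peak and the 6 SRSF genes in that range a median of 2. Between the HNRNP quartiles (4.29 to 23.2 kb), 3811 other genes had a median of 1 and the 10 HNRNP genes a median of 2. The tallest transcript-end peak of those other genes had a median of 26 reads in both ranges, against 25 in all other detected genes.

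A poly(A) signal was sought in the 100 bases before the 3′ edge, as AATAAA, its most common variant ATTAAA or any of 10 rarer forms. The rarer forms were AAGAAA and AATACA, further AATAGA and AATATA, besides AATGAA and ACTAAA, then AGTAAA with CATAAA, and last GATAAA with TATAAA. It was present at 64.0% of SRSF peaks (55 of 86) and 64.1% of HNRNP peaks (109 of 170), close to the 63.1% of other detected genes. Read on the opposite strand, which has no part in the gene's cleavage, the same windows held one of the hexamers in 44.2% and 55.3%, beside 42.8% in other detected genes. AATAAA alone was present at 26.7% and 29.4% on the gene strand and 12.8% and 11.2% on the opposite strand. Other detected genes had 30.9% and 11.8%.

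By place, AATAAA preceded 16 of 30 SRSF and 27 of 57 HNRNP transcript-end peaks but 4 of 29 and 5 of 55 intronic peaks. Among other detected genes it preceded 47.5% of transcript-end and 26.5% of intronic peaks. In the members' introns 40 of 84 windows held one of the 12 hexamers on the gene strand and 41 of 84 on the opposite strand, where the introns of other detected genes had 57.4% and 36.5%. A match here is a description of the sequence and not proof of a used signal.

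Among the SR proteins with a pair of RNA recognition motifs, SRSF1, a general activator of splicing, had its tallest peak (64 reads) in its 3′ UTR. That summit lay just upstream of the transcript-end window and its 3′ edge inside it. The only transcript-end peak, of 45 reads, stood at an end shared by an NMD transcript and one with no defined coding sequence. SRSF1 had no intronic peak. All 5 of its peaks also lay in an overlapping gene known only by an Ensembl identifier.

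SRSF5 had its tallest transcript-end peak, of 56 reads, at the end of a retained-intron transcript, and 38 reads at the end of its canonical transcript. Its only intronic peak (15 reads) lay before the canonical transcript. SRSF6, another activator, had transcript-end peaks of 34, 49, 37 and 34 reads and a taller peak of 56 reads 1787 bp past the gene. Its single intronic peak, of 33 reads, lay past the canonical transcript. All 6 peaks of SRSF6 also lay in a gene known only by an Ensembl identifier.

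SRSF4 was the lowest in reads of this group, with 25 reads at its canonical end, and held 3 intronic peaks of 17 to 21 reads and 4 exonic peaks of 9 to 21 reads. Of its canonical introns, the first held 5 of the 6 summits. SRSF9 had 56 reads 192 bp past its end, in the neighbouring GATC, and 4 intronic peaks of 11 to 51 reads. The 3 of them outside its canonical transcript, the 51-read peak included, also lay in DYNLL1, which encodes a dynein light chain, and cannot be assigned to SRSF9 in a list with no strand.

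SR proteins with a single RNA recognition motif held the tallest ends of the family. SRSF7, which links splicing to mRNA export, had 73 reads at its canonical end and 55 and 30 reads at upstream ends, and no intronic peak. Past its end stood peaks of 52 and 31 reads, the latter in GALM. SRSF8, an intronless relative of SRSF2, had 70 and 31 reads at its end and an exonic peak of 25 reads that was followed by an A stretch. SRSF2 had 52 reads at its canonical end and no intronic peak, and 3 peaks of 35 to 56 reads past the gene, all in METTL23. Its transcript-end peaks also lay in a gene known only by an Ensembl identifier.

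SRSF3, the smallest SR protein, had its tallest peak in the middle of the gene. This peak of 44 reads ended 3 bp from the annotated end of an NMD transcript inside canonical intron 3, with AATAAA starting 50 bases before the edge. The other transcript-end peaks had 38, 35 and 30 reads, and its only peak intronic in every transcript had 22. Against the canonical transcript alone, SRSF3 thus had a taller peak in an intron than at its end.

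SRSF11 held the most peaks of any member (17) and the most intronic ones (12, from 10 to 39 reads), 5 of them before the start of its canonical transcript and 5 in the first canonical intron. Its tallest peak had 70 reads and spanned canonical exon 11. The summit lay 1 bp before that exon, in an exon of another transcript, and the peak reached into the last exon, with none of the 12 hexamers before its 3′ edge. Its transcript-end peaks had 21 and 36 reads.

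SRSF10, which represses splicing when dephosphorylated, and the related SRSF12 completed the family. SRSF10 had 5 transcript-end peaks of 17 to 39 reads, 3 intronic peaks of 20 to 31 reads and the highest number of intronic peaks per kb in the family, 0.636. SRSF12 had 1 transcript-end peak, of 23 reads at a retained-intron end, and 4 intronic peaks of 13 to 26 reads. The 100 bases around the 26-read peak had 258 copies elsewhere in the genome with at least 95 identical bases. Whether its reads could be placed uniquely was not tested.

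Among the hnRNP A/B and D proteins, which bind UAG and AU-rich motifs, HNRNPA0 stood apart. This intronless gene is annotated with 1 transcript, and its 5 peaks had 64, 61, 71, 89 and 45 reads in the direction of transcription. All lay in the 3′ UTR, from 1715 to 6727 bp after the start of a gene of 8.71 kb, and none at its annotated end. The 89-read peak, the tallest of any member, was 1013 bp wide. AATAAA started 50 bases before the 3′ edge of the 64-read peak and 27 bases before that of the 71-read peak.

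HNRNPA2B1 had 71 reads at a transcript end within the canonical 3′ UTR, with AATAAA starting 10 bases before the edge. Intronic peaks of 43, 45 and 51 reads followed downstream of the canonical transcript, where the gene body is extended by longer annotated transcripts and, for 1 of the 3, NFE2L3 overlaps. HNRNPA1 had 5 transcript-end peaks of 37 to 58 reads and no intronic peak. Its 84 annotated transcripts left only 0.199 kb of sequence that is intronic in all of them.

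HNRNPA3 had 5 exonic peaks of 31 to 61 reads and 3 transcript-end peaks of 37 to 50 reads, all 3 also in NFE2L2, and none intronic. HNRNPAB had 46 reads at its canonical end and 1 intronic peak of 29 reads, which also lay in PHYKPL. HNRNPD, which promotes the decay of AU-rich mRNAs, had 50 reads at its tallest end, in its coding part, 47 reads at an end in the 3′ UTR, and 3 intronic peaks of 25 to 32 reads in canonical intron 2. The 32-read peak was followed by 25 bases with 21 A and had AATATA starting 91 bases before its edge. HNRNPDL had 74 reads at a transcript end, an 88-read exonic peak 945 bp wide and a peak of 58 reads 1145 bp past the gene.

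HNRNPC, which binds uridine tracts and guards against the inclusion of Alu exons, had 6 intronic peaks of 11 to 42 reads. Those with most reads, 42 and 33, lay in canonical intron 2, before the coding start. Its 54 reads at a transcript end and 60 reads in a coding exon were taller. In the F/H group, which binds G-rich motifs, HNRNPF had 58 reads at its end and 6 intronic peaks of 15 to 43 reads, all before the coding start. HNRNPH1 had 53 and 49 reads at its canonical end and 2 peaks of 34 and 31 reads at transcript ends within canonical intron 5, one of which belongs only to a retained-intron transcript. Its 2 intronic peaks, before the canonical transcript, had 19 and 14 reads. HNRNPH2 had 44 reads at its end and 20 in its single intron, and HNRNPH3 42 at its tallest end and 27 in canonical intron 1.

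HNRNPK, which binds C-rich motifs, had 64 reads at its canonical end, 36 at an end further upstream and 2 intronic peaks of 22 and 32 reads. The 32-read summit lay 1 bp before canonical exon 4 and its 3′ edge in that exon. HNRNPL and HNRNPLL bind CA-rich motifs. HNRNPL had 48 reads at its canonical end and a taller peak of 57 reads in canonical intron 6, in an exon of another transcript. HNRNPLL had 41 reads in canonical intron 1 and 32 reads at its tallest end, with 6 intronic peaks in all.

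HNRNPM and HNRNPR held 7 intronic peaks each, the most in the family. In HNRNPM they had 10 to 25 reads and the canonical end had 34, while a peak in a coding exon had 40. In HNRNPR an intronic peak and a transcript-end peak both had 44 reads. The summit of that intronic peak lay 8 bp before canonical exon 10 and its 3′ edge lay in the exon. The remaining intronic peaks of HNRNPR had 15 to 24 reads.

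The U group, scaffold-type proteins with an RGG box, had the tallest transcript end of all members. HNRNPU had 83 reads in a peak 1290 bp wide, whose 3′ edge lay beyond the transcript-end window. Its other transcript-end peaks had 28 to 55 reads, 3 of them in COX20, and its only intronic peak had 29. HNRNPUL1 had 60 and 40 reads at its ends and 4 intronic peaks of 10 to 19 reads. HNRNPUL2 had 32 reads at its canonical end, 43 in its 3′ UTR and 18 in its only intronic peak, which lay 9 bp from an exon.

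**Figure D3:**
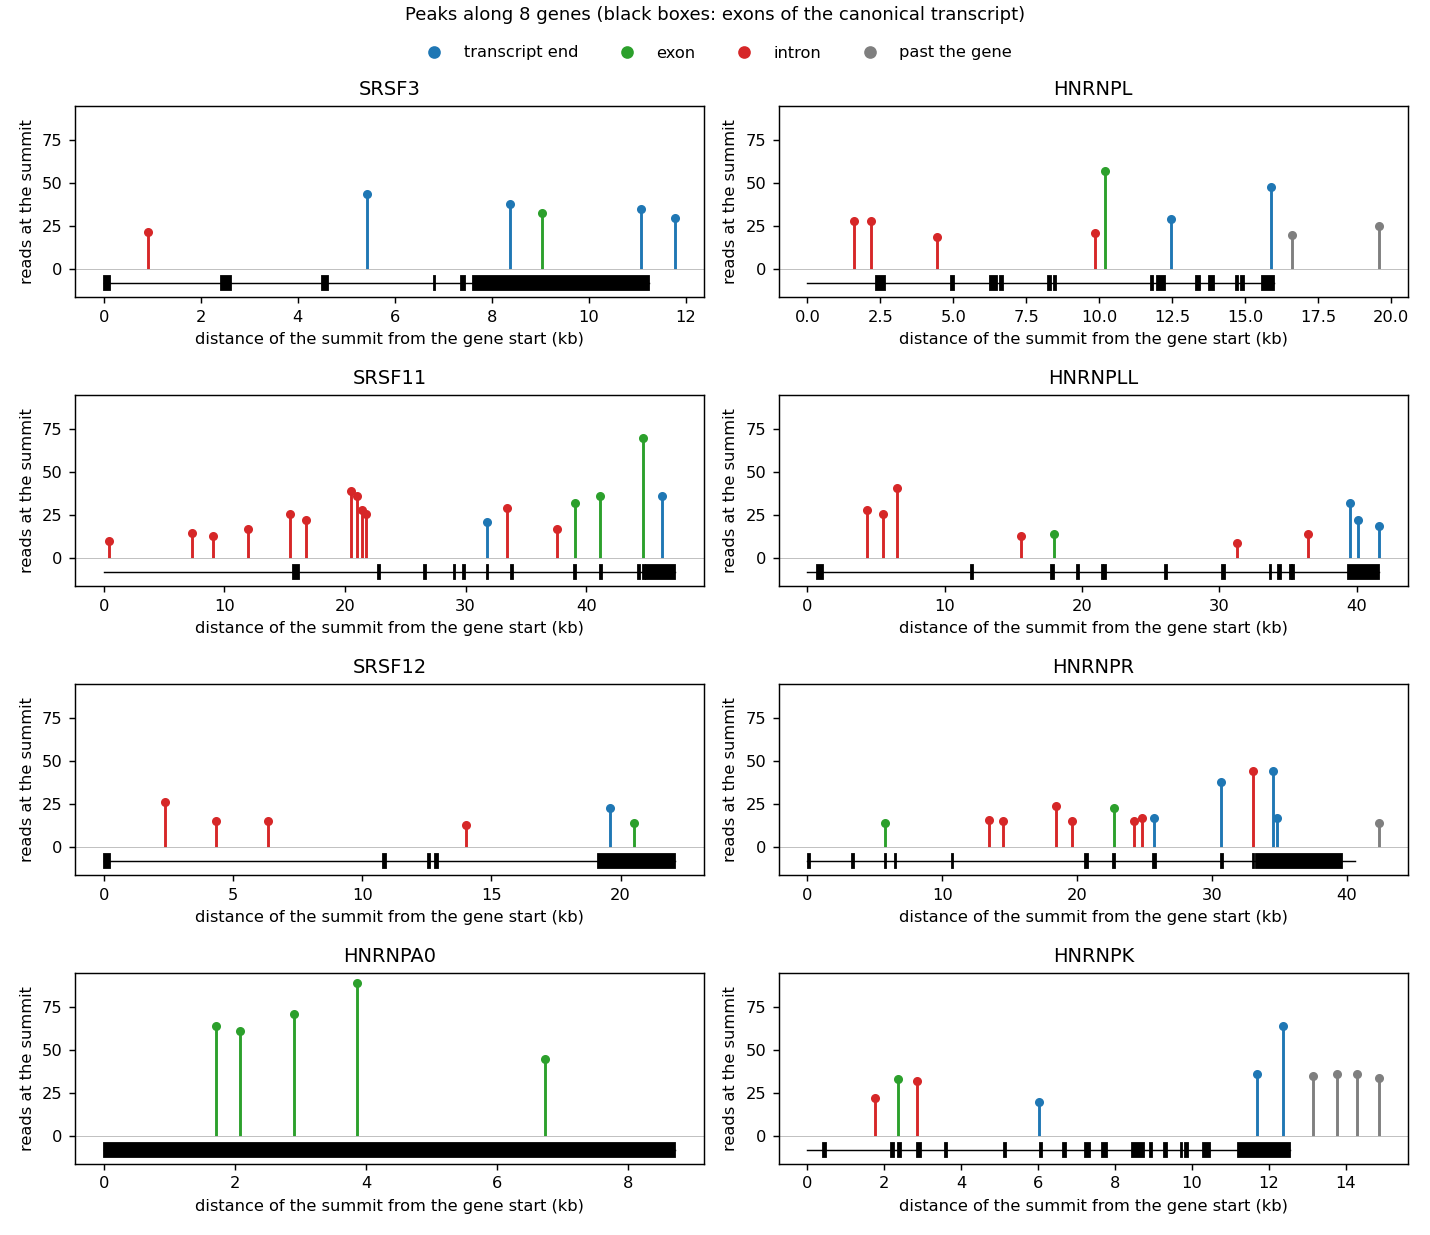
Reads at the summit (y axis) against the distance of the summit from the gene start (x axis, kb) for 8 genes chosen after their values were seen, with canonical exons as black boxes. SRSF3 shows its 44-read peak between exons, HNRNPA0 its 5 peaks well before the end of the gene, HNRNPLL its 41-read peak in the first intron, and HNRNPK its 4 peaks of 34 to 36 reads past the end.

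The tallest intronic peak was at least as tall as the tallest transcript-end peak in 2 of 11 SRSF genes with an intron (SRSF11, 39 against 36 reads, and SRSF12, 26 against 23) and 2 of 19 HNRNP genes (HNRNPLL, 41 against 32, and HNRNPR, 44 against 44). Other detected genes did so in 30.5%. The intronic peaks counted in SRSF11, SRSF12 and HNRNPLL had none of the 12 hexamers before the 3′ edge. That of HNRNPR had AAGAAA starting 30 bases before it. The SRSF12 peak was also followed by 18 A in 25 bases. These calls depended on the setting. The 39-read peak of SRSF11 had 37 near-identical copies and the 26-read peak of SRSF12 had 258. Without such peaks SRSF11 stood at 36 against 36 reads. Leaving them out left SRSF11 alone in its family and added HNRNPC and HNRNPK to the other. When the 3′ edge was classed in place of the summit, an alternative chosen after the data were seen, only SRSF12 and HNRNPLL remained. With fold enrichment as the height the genes were SRSF9, SRSF10 and SRSF11 and, in the other family, HNRNPH1 alone. Against canonical transcripts alone they were SRSF3 and, in the other family, HNRNPC, HNRNPD, HNRNPL and HNRNPLL. The HNRNPL peak counted there had no hexamer before its 3′ edge and was followed by 21 A in 25 bases. SRSF11, SRSF12 and HNRNPR could not be counted there, because they had no peak at the canonical end. Their tallest canonical-intron peaks had 70, 26 and 44 reads.

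**Figure D4:**
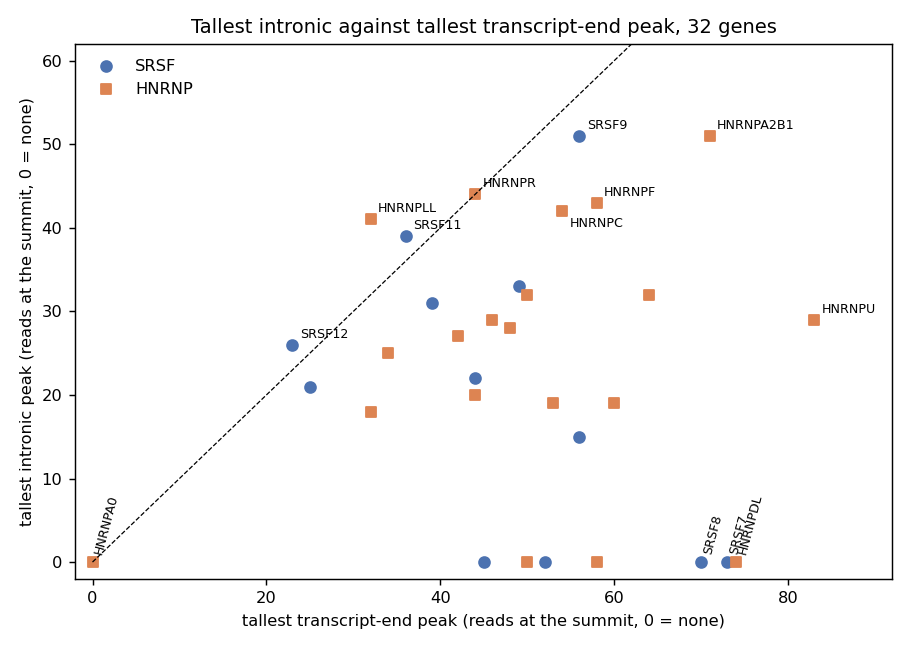
Tallest intronic peak (y axis, reads at the summit) against tallest transcript-end peak (x axis, reads at the summit) for the 32 genes, with 0 where a gene has none and equality as the dashed line. HNRNPLL, SRSF11 and SRSF12 lie above the line, HNRNPR on it, and SRSF9 carries a 51-read peak that lies in DYNLL1.

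Canonical introns held 28 SRSF and 62 HNRNP summits. Of these, 9 of 28 and 14 of 62 lay in an exon or at an end of another transcript of the gene, where 11.1% did among other detected genes. The median share of the coding sequence upstream of these summits was 14.0% in SRSF and 27.3% in HNRNP genes, against 23.1% elsewhere. In SRSF genes 16 of 28 (57.1%) lay in the first canonical intron and in HNRNP genes 15 of 62 (24.2%), beside 29.2% in other detected genes. Most of the SRSF ones came from SRSF4 and SRSF11. Ends of NMD or retained-intron transcripts alone accounted for 6 of the 30 SRSF and 8 of the 57 HNRNP transcript-end peaks. This was not counted for the transcript-end peaks of other detected genes, so whether these counts are unusual cannot be said. In the annotation, a different measure, NMD and retained-intron transcripts were a median 52.3% of the transcripts of an SRSF gene. The median was 24.4% for an HNRNP gene, beside 25% in other detected genes.

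Past the last annotated end, from 600 to 4000 bp, a peak could be credited to a member only where no other gene lay in those 4000 bp. Of the 4 detected SRSF genes with such a clear stretch (SRSF3, SRSF8, SRSF11, SRSF12) none had a peak there, and of the 6 HNRNP genes 3 did, against 18.5% of other detected genes. HNRNPK had 4 peaks of 34 to 36 reads between 603 and 2324 bp, HNRNPH1 had 36 and 31 reads at 2382 and 1392 bp, and HNRNPDL had 58 reads at 1145 bp. HNRNPF, HNRNPH2 and HNRNPLL had none. With other genes in the stretch allowed, 6 of 12 SRSF and 11 of 20 HNRNP genes had a peak there. That count was not made for other detected genes.

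Overlapping genes limit the assignment of peaks in a list with no strand. The summit also lay in another gene for 26 of 86 SRSF and 48 of 170 HNRNP peaks (30.2% and 28.2%), beside 23.8% in other detected genes. It held for all peaks of SRSF1, SRSF2 and SRSF6, as given above. It also held for all 6 peaks of HNRNPA1, in a gene known only by an Ensembl identifier, and for all 5 of HNRNPUL2, in the readthrough gene HNRNPUL2-BSCL2. In HNRNPUL1 both transcript-end peaks lay in TGFB1.

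Near-identical copies can limit where the reads of these genes are placed, and reads with up to 20 placements had been kept. The placement of single reads was not tested. The 100 bases around the summit had a copy elsewhere with at least 95 identical bases for 11 of 86 SRSF peaks and 18 of 170 HNRNP peaks, beside 21 of 200 peaks drawn from other protein-coding genes. The tallest peak was affected in SRSF10, SRSF12, HNRNPA1, HNRNPA3, HNRNPF, HNRNPK and HNRNPU. In HNRNPA1 the 58-read peak had 8 copies, 6 of which carried a peak of their own, and in HNRNPA3 the 61-read peak had 7 copies, 1 with a peak. Copies with insertions or deletions may have been missed, so these counts are lower limits.

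Other genes of the pathway gave the following. The kinases of SR proteins, their importer and SR-related activators (16 genes) were all detected, 13 had an intronic peak and 3 (CLK3, CLK4, SRPK2) an intronic peak at least as tall as the end, with a median tallest end of 41.5 reads. Other hnRNP-type proteins (8 genes) were likewise all detected, 6 had an intronic peak and 1 (RALY) one as tall as its end, with a median tallest end of 55 reads. PCBP1 and PCBP2 led with 101 reads each.

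Markers of the cell line were read by the presence of a transcript-end peak. All 9 noradrenergic neuroblastoma genes examined were detected, and none of 7 blood, liver, keratinocyte and endothelial genes was. The noradrenergic heights ran from 19 reads (DBH) and 23 reads (TH) to 100 reads (MYCN) and 123 reads (PHOX2A). Of 3 mesenchymal neuroblastoma genes, FN1 and VIM were detected with 20 and 31 reads, and PRRX1 was not. The heights of the neuroblastoma lists thus overlapped.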

How the data were processed

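QuantSeq REV libraries of IMR-32 cells were trimmed by the authors, mapped to GRCh38 with STAR 2.5.1b (up to 20 placements per read), merged, and given to MACS2 2.1.1 (reads extended to 100 bp, no control). The merged samples are taken to be the 6 libraries. Per peak, the deposited list holds a fold value (pileup plus 1 over background plus 1), −log10 p, −log10 q, a summit offset and a score of 10 times −log10 q. The depth of each library is unknown.

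Reads at the summit were recovered from fold and −log10 p (largest misfit 0.000172) and the step was tested on simulated data. Genes came from Gencode 44, where the study used Gencode 27. Near-identical copies (95 of 100 bases) were sought with BLAST 2.17.0. A search with 24-base seeds and no gaps, taken at first for speed, found copies for 21 of the 284 peaks and for 17 of 200 others. A slower check then showed that it missed copies at tall peaks, so after these results were seen it was replaced by 16-base seeds with gaps, which found 31 and 21. Tables were made with Python 3.11.15 and pandas 2.3.3. The genes, lists and comparisons were chosen with earlier results of these data known. No comparison between the families or with other genes was tested, since 1 pooled list has no replicates, and intervals cover counting error only. Every member is given. Described more fully were, per family, the 5 with the tallest transcript-end peak and the 5 with most intronic peaks. Added were members with an intronic peak as tall as the end, a peak 600 to 4000 bp past it, or a tallest peak with a copy. A peak past the end counted for this only where no other gene lay in those 4000 bp.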

Additional observations from a re-analysis of the deposited data

How the results depend on the processing

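Of 72 alternatives to the 12 results (6 for each family), 47 stayed within the interval or within 1.5 times the reported value, and 25 did not. The strict cutoff of −log10 q 20 moved most. There 14 SRSF and 32 HNRNP peaks remained, and the intronic share became 14.3% and 6.25%. Intronic peaks per kb became 0.0119 and 0.00642, and the hexamer share of HNRNP peaks 81.3%. Genes with an intronic peak as tall as the end numbered 0 and 1, and HNRNP genes with a peak past the end 0. SRSF11 and SRSF12 kept no transcript-end peak at that cutoff and so were not counted, although SRSF11 kept an intronic peak of 29 reads. The hexamer share was 26.7% (SRSF) and 29.4% (HNRNP) for AATAAA alone, 44.2% and 44.1% for a window ending at the summit, and 44.2% and 55.3% on the opposite strand, which was added after seeing the data. Without summits in another gene the HNRNP intronic share was 41.0%. Genes with an intronic peak as tall as the end numbered 1 SRSF and 4 HNRNP without near-identical copies, 1 SRSF without peaks followed by 18 A in 25 bases, 1 HNRNP (HNRNPH1, with HNRNPLL and HNRNPR lost) with height as fold, 1 and 4 against canonical transcripts, and 1 and 1 with the 3′ edge classed, also added later. Against canonical transcripts, SRSF11, SRSF12 and HNRNPR had no peak at the canonical end and so were not counted. Leaving out near-identical copies left 2 HNRNP genes with a peak past the end. No paired analysis was possible because every value comes from the merged reads, and for the same reason no replicate could be left out. Heights level off with depth, so they do not rank expression.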
